A study of Mus musculus with 4 samples.

Results

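The genes described are 10 that detect nucleic acid in the cytosol or relay that signal, taken by name: the sensors Rigi, Ifih1, Dhx58, Cgas, Zbp1 and Eif2ak2, the adaptors Mavs and Sting1, and the kinases Tbk1 and Ikbke. They were chosen with earlier results of these data known. All 10 were present among the 53647 genes counted. The tests covered 15173 genes with enough counts, 9 of these 10 among them, and Zbp1 was left out. After EDA-A2, 2 of the 9 genes were called higher, Rigi at 1.53-fold and Ifih1 at 1.66-fold, beside 2.45% of all genes tested. Both calls were lost without either control library, and also with no filter on low counts. No call was made for the other 7, whose log2 fold changes lay between -0.23 and 0.34.

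Bulk RNA sequencing compared control myotubes with myotubes given EDA-A2, a ligand of the TNF receptor superfamily member EDA2R, in 2 libraries per group. The cells of both groups were wild-type mouse primary myotubes, grown from myoblasts of the limb muscles of pups 2 to 3 days old and harvested 72 h after the start of differentiation. The EDA-A2 group received recombinant EDA-A2 at 250 ng/mL for 24 h, and the control group did not. The labels do not say whether the libraries of a group came from separate cultures, so p-values measure the spread between these libraries, which may be technical.

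Double-stranded RNA in the cytosol is detected by RIG-I (encoded by Rigi) and MDA5 (Ifih1), which signal through the mitochondrial adaptor MAVS, while LGP2 (Dhx58) modulates both. DNA in the cytosol activates cGAS, whose cyclic dinucleotide product binds STING. Both routes converge on the kinases TBK1 and IKK epsilon (Ikbke) and on the transcription factors IRF3 and NFκB, which switch on type I interferon genes. Interferon acts back through its receptor and the factor ISGF3, and several sensors are themselves interferon-induced genes.

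Each library held 29444155 to 29746863 read pairs on genes, and a count of 0 allows up to 3 counts, or 0.101 to 0.102 CPM, the usual scaling of a count by the total of its library. Such limits cover counting error only. Among all genes tested, 371 were higher after EDA-A2 (2.45%) and 323 lower (2.13%), 694 in either direction (4.57%), by the quasi-likelihood test of edgeR at an adjusted p under 0.05. Of all genes tested, 49.5% had a positive log2 fold change and 2372 (15.6%) had an unadjusted p under 0.05 in edgeR. Scaled to total counts alone, 485 were called higher and 194 lower. The control libraries differed more from each other than the EDA-A2 libraries did, with a chi-square per gene of 9.94 against 4.73, and between groups it was 15.95 to 22.1. Markers of myotubes were abundant in every library, with summed levels of 21803 and 21114 CPM in control and 15548 and 15630 CPM after EDA-A2, and 4 of the 8 were called lower. The macrophage markers Ptprc and Adgre1 had 0 to 2 counts in any library, and the 7 macrophage markers summed to 3.10 and 3.54 CPM in control against 5.30 and 4.42 CPM after EDA-A2. The 3 of them that were tested had positive changes without a call. Cd68 had 54 and 63 counts against 81 and 69, Itgam 18 and 18 against 39 and 32, and Cd14 11 and 17 against 30 and 26. The 6 fibroblast markers summed to 325 and 186 CPM in control and 173 and 210 CPM after EDA-A2, with Lum and Thy1 at 0 throughout. Most of this sum was Col1a1, at 9004 and 5046 counts in control and 4769 and 5904 after EDA-A2. Pdgfra (240 and 286 against 308 and 300) and Dcn (73 and 99 against 138 and 111) moved the other way, and no fibroblast marker was called. The 5 markers of dividing cells summed to 707 to 839 CPM over the 4 libraries. The 4 myoblast markers summed to 194 to 221 CPM, with Vcam1 called higher and Cdh15 lower. The T cell markers Cd4 and Cd8a and the endothelial marker Emcn were at 0 in all 4 libraries. The 5 T cell markers summed to 0.627 and 1.09 CPM in control and 0.431 and 0.565 CPM after EDA-A2, with Trac at 10 to 20 counts. The 5 endothelial markers summed to 0.997 to 1.23 CPM, with Cdh5 at 14 to 25 counts. The part of these markers in the values below was not tested.

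The promoters of the sensing genes were searched for the letters of an interferon-stimulated response element (ISRE), the site that ISGF3 and IRF proteins bind, because the sensors are known interferon-induced genes. RefSeq promoter windows, from 250 bases before to 50 bases after the start, were at hand for 7 of the 10 genes. The pattern GAAANNGAAA, read on both strands, stood in 3 of the 7 windows, those of Rigi, Ifih1 and Eif2ak2, against 1126 of all 32817 windows (3.43%). Its letters were not found in those of Cgas, Mavs, Tbk1 and Ikbke. The kappa B pattern GGGNNTTTCC was in none of the 7 windows and in 1.63% of all. The 2 genes that rose, Rigi and Ifih1, both belong to the 3 that hold the ISRE letters, and Eif2ak2, the other, was not called. Each match below is shown in capitals with its neighbouring bases, 5′ to 3′ on the strand of the gene, and each lies 2 to 32 bases after the start.
Rigi, chr4:40239804-40239833 of GRCm38.p6, minus strand: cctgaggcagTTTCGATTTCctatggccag
Ifih1, chr2:62646206-62646235 of GRCm38.p6, minus strand: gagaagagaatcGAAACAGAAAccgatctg
Eif2ak2, chr17:78882535-78882564 of GRCm38.p6, minus strand: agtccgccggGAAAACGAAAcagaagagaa
In Rigi the pattern reads on the opposite strand, and in Ifih1 and Eif2ak2 on the strand of the gene. A match describes the letters only, and binding was not measured.

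Among the sensors, Rigi and Ifih1 were called, and both are RNA sensors. Dhx58 and Eif2ak2, which also sense RNA, were not called, nor was Cgas, and Zbp1 was not tested. The calls therefore do not set RNA sensors apart from the others. Rigi (ENSMUSG00000040296, chromosome 4 from 40203772 to 40239852 of GRCm39), the sensor of RNA with a 5′ triphosphate, had 825.3 and 635.3 normalized counts in control replicates 1 and 2 and 1130 and 1102 in EDA-A2 replicates 1 and 2. Normalized counts are counts scaled to a common library size with the TMM factors of edgeR. Both EDA-A2 libraries lay above both controls, and the controls stood further apart than the treated libraries. The mean rose from 730.3 ± 134 to 1116 ± 20.1 normalized counts (SD, n = 2). The log2 fold change was 0.61 with a 95% interval of 0.38 to 0.84 (standard error 0.11, adjusted p = 0.00318 in edgeR). In these bulk libraries, a change in the number of cells of a type and a change in the RNA per cell cannot be told apart.

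Ifih1 (ENSMUSG00000026896, chromosome 2 from 62425714 to 62476607), the sensor of long double-stranded RNA, had 193.7 and 162.4 normalized counts in control and 293.1 and 296.8 after EDA-A2. The groups did not overlap, and the treated libraries were nearly equal. From 178.0 ± 22.2 to 295 ± 2.63 normalized counts, the log2 fold change of Ifih1 was 0.73 (standard error 0.14, 95% interval 0.43 to 1.02, adjusted p = 0.00575 in edgeR). The macrophage marker sum given above moved in the same direction as Rigi and Ifih1, and its part in their change was not tested.

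The rise of both genes lost its call without either control library, and also with all 4 libraries when no filter on low counts was applied (adjusted p 0.181 for Rigi and 0.113 for Ifih1). Without control replicate 1, the higher of the controls for both, the log2 fold changes were 0.81 for Rigi (adjusted p 0.148) and 0.86 for Ifih1 (0.18). Without control replicate 2 they were 0.43 (0.142) and 0.60 (0.16). Over the same omissions the number of genes called among all genes tested dropped to 7 and 9.

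Dhx58 (ENSMUSG00000017830, chromosome 11 from 100585710 to 100595097), the third member of the RIG-I family, lacks the signalling domain of the others. It had 53.6 and 50.4 normalized counts in control and 60.8 and 70.8 after EDA-A2. Its groups did not overlap, but the log2 fold change of 0.34 had a 95% interval of -0.18 to 0.85 and an adjusted p of 0.58. The change seen in Rigi and Ifih1 thus lies inside the interval for Dhx58. A noncoding transcript on the other strand, Dhx58os, shares 141 exon bases with Dhx58 and had 27 to 51 counts, and the strand setting of the counting is not given in the sources used here.

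**Figure D1:**
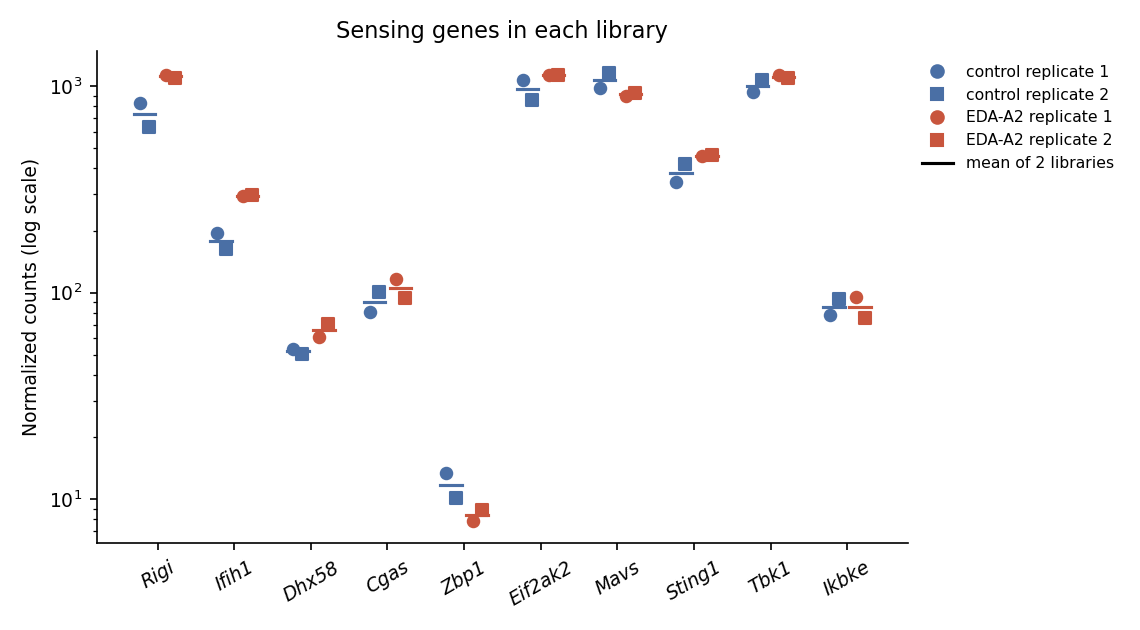
Normalized counts (log axis) of the 10 sensing genes in each of the 4 libraries, control in blue and EDA-A2 in red, with replicate 1 as circles, replicate 2 as squares and bars at the mean of 2 libraries. Rigi (1102 and 1130 after EDA-A2 against 635.3 and 825.3) and Ifih1 show the widest gaps between groups for their spread, and Zbp1 lies lowest, between 7.84 and 13.4.

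Eif2ak2 (ENSMUSG00000024079, chromosome 17 from 79159972 to 79190012) encodes PKR, the kinase that stops translation in response to double-stranded RNA by phosphorylating eIF2 alpha. Its levels were 1072 and 858.1 normalized counts in control and 1137 and 1139 after EDA-A2. Both treated libraries were above both controls, by little in the case of control replicate 1. The log2 fold change of Eif2ak2 was 0.24 (95% interval 0.03 to 0.45), which had a p of 0.0292 before adjustment and 0.241 after it in edgeR. The value rested on the choice of control library, at 0.40 without control replicate 1 and 0.08 without control replicate 2, and it was called in neither case. On the other strand, Eif2ak2 shares 184 exon bases with the noncoding gene Gm26637, 47 with Gm55596, which had 0 counts, and none with Gpatch11.

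Zbp1 (ENSMUSG00000027514, chromosome 2 from 173033815 to 173060724) encodes a sensor of Z-form nucleic acid that can start necroptosis. It was the least abundant of the 10 genes, with 13 and 10 counts in control and 8 and 9 after EDA-A2. Both treated libraries were below both controls by a few counts. With the filter removed, the log2 fold change of Zbp1 was -0.49 (standard error 0.41, unadjusted p = 0.28 and adjusted p = 0.733 in edgeR), so no difference was detectable at this depth.

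For DNA in the cytosol, Cgas (ENSMUSG00000032344, chromosome 9 from 78337802 to 78350535), the enzyme that makes the cyclic dinucleotide, had 80.4 and 100.8 normalized counts in control and 116.6 and 94.3 after EDA-A2. The groups overlapped. The log2 fold change of Cgas was 0.22 (95% interval -0.22 to 0.66, adjusted p 0.707), and it ranged from 0.06 to 0.39 when any 1 library was left out. A noncoding gene on the other strand, Gm68924, shares 1785 exon bases with Cgas.

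Neither adaptor passed the test, and the signs of their log2 fold changes were opposite. Mavs (ENSMUSG00000037523, chromosome 2 from 131075442 to 131096740), the mitochondrial adaptor of RIG-I and MDA5, had 981.9 and 1157 normalized counts in control and 897.9 and 927.7 after EDA-A2. It was the 1 tested gene of the 9 whose treated libraries both lay below the controls, and it shares 606 exon bases with the noncoding gene Gm75131 on the other strand. The log2 fold change of Mavs was -0.23 (95% interval -0.43 to -0.03), which had a p of 0.0257 before adjustment and an adjusted p of 0.225 in edgeR, with -0.34 and -0.11 when control replicate 1 or 2 was left out.

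Sting1 (ENSMUSG00000024349), the receptor for the product of cGAS, had 345.2 and 418.5 normalized counts in control and 458.7 and 461.9 after EDA-A2. Both treated libraries were above both controls and close to each other. The log2 fold change of Sting1 was 0.27 (95% interval 0.02 to 0.52), which had a p of 0.0354 before adjustment and an adjusted p of 0.266 in edgeR, at 0.14 without control replicate 1 and 0.41 without control replicate 2. Here control replicate 2 was the higher of the controls, the reverse of Rigi, Ifih1 and Eif2ak2.

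Of the kinases, Tbk1 (ENSMUSG00000020115, chromosome 10 from 121382360 to 121422848), which phosphorylates IRF3, had 932.4 and 1075 normalized counts in control and 1137 and 1090 after EDA-A2. The groups were just apart. The log2 fold change of Tbk1 was 0.15 (95% interval -0.04 to 0.34, adjusted p 0.475), at 0.05 without control replicate 1 and 0.25 without control replicate 2. Its relative Ikbke (ENSMUSG00000042349, chromosome 1 from 131182080 to 131207346) had 78.3 and 92.8 normalized counts in control and 95.1 and 75.7 after EDA-A2. The values of Ikbke interleaved, the log2 fold change was -0.00 (95% interval -0.46 to 0.46, adjusted p 0.996). This interval holds the lower bound of the one for Rigi.

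**Figure D2:**
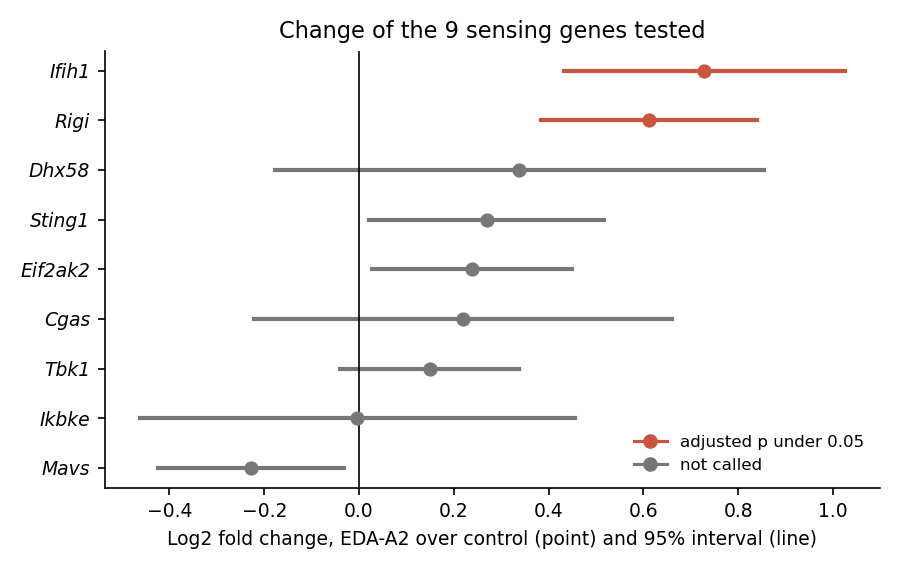
Log2 fold change of EDA-A2 over control for the 9 sensing genes tested, with points at the estimate, lines for the 95% interval and red for an adjusted p under 0.05. Ifih1 (0.73) and Rigi (0.61) are called, the intervals of Sting1, Eif2ak2 and Mavs leave out 0 without a call, and those of Dhx58, Cgas, Tbk1 and Ikbke include it.

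Because the genes were chosen with earlier results of these data known, the counts below are no independent test against the background. Over the 9 genes tested, 7 had a positive log2 fold change and the median was 0.24, against 49.5% positive and a median of -0.00 over all genes tested. Called higher were 2 of 9, beside a background of 2.45%, and none was called lower by edgeR or by the DESeq2 Wald test. An unadjusted p under 0.05 in edgeR was reached by 5 of 9, with Mavs the 1 lower, beside 15.6% of all genes tested. In 6 of 9 both treated libraries lay above both controls (Rigi, Ifih1, Dhx58, Eif2ak2, Sting1 and Tbk1), which held for 22.8% of all genes tested. The reverse order was seen in Mavs, and in 22.2% of all genes tested. The control libraries entered these orders unequally: control replicate 1 was above control replicate 2 by 1.30 times for Rigi, 1.25 for Eif2ak2, 1.19 for Ifih1 and 1.06 for Dhx58, and the ratio was 0.80 to 0.87 for Cgas, Sting1, Ikbke, Mavs and Tbk1. Over all genes tested the median ratio was 0.999, and 12.5% of genes had a ratio of at least 1.2.

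**Figure D3:**
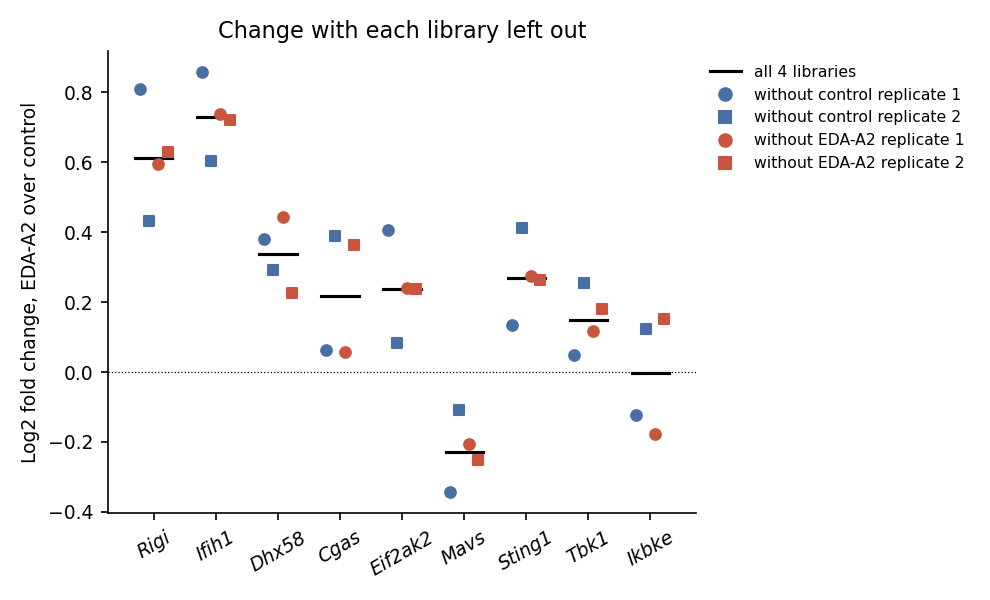
Log2 fold change of EDA-A2 over control for each of the 9 sensing genes tested, with all 4 libraries (bar) and after leaving out 1 library at a time (symbols). For Rigi, Ifih1, Eif2ak2, Mavs, Sting1 and Tbk1 the values furthest from the bar are those without a control library, as at 0.81 and 0.43 for Rigi, and only Ikbke changed sign.

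Levels were set side by side per kilobase of exon, in CPM per kilobase. In control, Eif2ak2 (6.66 and 5.34 in its libraries) and Tbk1 (5.56 and 6.41) were highest. By the mean of the controls they were followed by Sting1 (4.05), Mavs (3.18), Rigi (2.92), Ifih1 (0.669), Cgas (0.590), Dhx58 (0.521), Ikbke (0.278) and Zbp1 (0.0924). Within this order the control libraries of Eif2ak2 and Tbk1 overlapped, as did those of Mavs and Rigi, of Ifih1 and Cgas, and of Cgas and Dhx58. After EDA-A2, Rigi at 4.47 stood above Mavs at 2.71, where the libraries of control had overlapped, and the order of the other 8 genes was the same. Ifih1 at 1.11 then stood above Cgas at 0.687 in both treated libraries. The levels of Mavs, Sting1 and Tbk1 exceeded those of Ifih1, Dhx58 and Cgas in both groups on this scale. By the mean, however, the sensor Eif2ak2 was highest in both groups, and the kinase Ikbke lay below Ifih1, Dhx58 and Cgas. The order therefore does not set sensors apart from adaptors and kinases. Length here is that of all annotated exons of a gene together, which need not match the transcripts expressed, so the order between genes depends on the annotation.

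The partners of these genes were followed in 10 lists of 157 genes, also chosen with earlier results of these data known. Among them, 124 genes were tested. Of these, 13 were called higher and 1 lower, beside 2.45% higher and 2.13% lower over all genes tested, and the median log2 fold change was 0.04. None of these 14 calls was kept without either control library. Without EDA-A2 replicate 1 and without EDA-A2 replicate 2 alike, those of Ddx60, Tank, Ifit1, Ifnar1 and Irgm1 were lost, as were those of Casp8 and Stim1 without the first and of Cyld without the second. With no filter on low counts, Traf2, Traf3 and Ccl5 alone among the 14 were called. Of 19 genes that act below MAVS and STING, 4 were called higher, 15 had a positive change (49.5% of all genes tested) and the median was 0.12. Traf3, the ubiquitin ligase that MAVS recruits to reach TBK1 and that also restrains noncanonical NFκB signalling, had 1211 and 1255 normalized counts in control and 2730 and 2894 after EDA-A2. Its groups were far apart, at 1.19 on the log2 scale (standard error 0.07, adjusted p = 1.47e-07 in edgeR). Traf2, a ubiquitin ligase shared with TNF receptor signalling, went from 1178 in both controls to 2077 and 2185, a log2 fold change of 0.86. Tank, a scaffold of TBK1 and IKK epsilon, rose by 0.35 on the log2 scale (adjusted p = 0.015), and Casp8, a protease that also acts on cell death, by 0.52 (0.0208). Irf3, singled out after its values were seen as the target of TBK1, had 936 and 922 counts in control and 979 and 1006 after EDA-A2, a log2 fold change of 0.04 (adjusted p 0.888).

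Among 20 cofactors and regulators of the RNA sensors, 19 were tested, 12 had a positive change and 2 were called higher. Over all genes tested these shares were 49.5% and 2.45%. Ddx60, a helicase described as a cofactor of RIG-I, had 157.6 and 178.5 normalized counts in control and 242.1 and 251.6 after EDA-A2 (log2 fold change 0.55, adjusted p = 0.0372), and the DESeq2 Wald test did not call it. Cyld, a deubiquitinase that restrains RIG-I and NFκB signalling, had 3988 and 4231 against 5035 and 5338 (0.34, adjusted p = 0.00972). The genes called in this list thus include both a cofactor and a negative regulator of RIG-I.

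Of 28 partners of DNA sensing, 27 were tested, with 12 positive changes and a median of -0.02. The 1 gene called, of 27 and beside 2.13% of all genes tested, was Stim1, a calcium sensor of the endoplasmic reticulum that also holds STING there, which fell from 3670 and 4185 normalized counts to 3042 and 3105 (log2 fold change -0.35, adjusted p = 0.0119). None was called higher by edgeR or the DESeq2 Wald test. No other gene of the list had an unadjusted p under 0.05 in edgeR, which 15.6% of all genes tested had. Trex1, which degrades DNA in the cytosol, was listed at 0 in every library, and all its 1147 exon bases lie within Atrip on the same strand. It was singled out after its values were seen, and its level is therefore unknown here.

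Of 21 partners of PKR and genes of eIF2 alpha signalling, all tested, 8 had a positive change and the median was -0.01. Neither edgeR nor the DESeq2 Wald test called any of them. An unadjusted p under 0.05 in edgeR was reached by 1 of the 21, beside 15.6% of all genes tested. It was Eif2b4, a subunit of the exchange factor of eIF2, with a log2 fold change of -0.26 (adjusted p 0.216). Of 7 partners of ZBP1 and of RNA editing, 6 had a positive change and 1, Casp8, was called higher. Over all genes tested these shares were 49.5% and 2.45%. For the endosomal sensors, which detect nucleic acid taken up from outside, 4 of 8 genes were tested. None of the 4 was called by edgeR or the DESeq2 Wald test, and 0 had an unadjusted p under 0.05 in edgeR, beside 15.6% of all genes tested. The gene with the smallest p was Tlr3, the endosomal sensor of double-stranded RNA (log2 fold change 0.60, adjusted p 0.358).

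**Figure D4:**
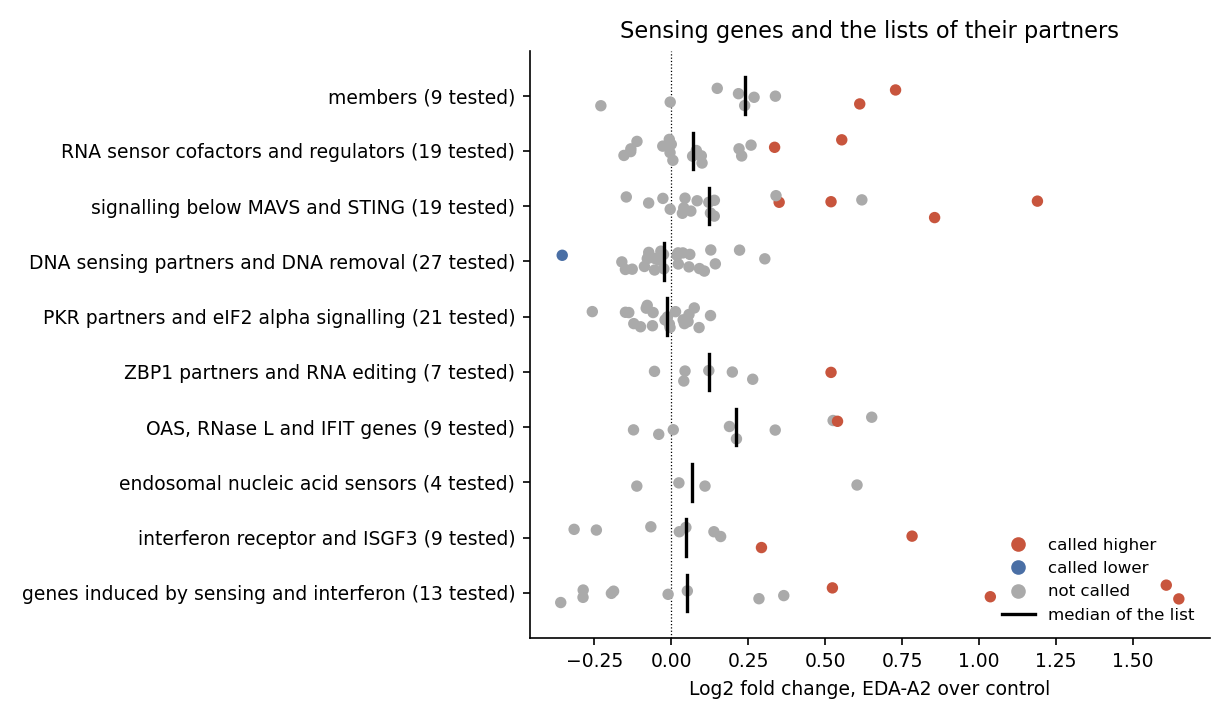
Log2 fold change of EDA-A2 over control for the sensing genes (members, top line) and the genes of each partner list, each point 1 gene, red if called higher, blue if called lower and grey if not called, with a bar at the median of the list. The medians lie between -0.02 and 0.24, and the called genes furthest to the right are Ccl5 (1.65), Cxcl10 (1.61), Traf3 (1.19) and Rsad2 (1.04).

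Downstream, transcripts of interferons themselves were near 0. Of 21 interferon genes, 17 had no count in any library, and all 21 together had 3 and 0 counts in control and 3 and 1 after EDA-A2, at or under the limit of 3 counts that a 0 allows for 1 gene. Of 9 genes of the interferon receptor and ISGF3, 2 were called higher, beside 2.45% of all genes tested. Tyk2, a kinase of the receptor, had 687.2 and 692.8 normalized counts in control and 1095 and 1279 after EDA-A2 (log2 fold change 0.78, adjusted p = 0.000121), and Ifnar1, a chain of the receptor, had a log2 fold change of 0.29 (adjusted p = 0.0411), which the DESeq2 Wald test did not call.

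Of 15 genes that sensing and interferon induce, 13 were tested, 4 were called higher and 7 had a positive change, with a median of 0.05. Over all genes tested, 2.45% were called higher and 49.5% had a positive change. The chemokines led. Ccl5 had 39.2 and 34.3 normalized counts in control and 108.8 and 121.9 after EDA-A2 (log2 fold change 1.65, standard error 0.23, adjusted p = 0.000529), and Cxcl10 had 65.9 and 40.3 against 179.4 and 144.5 (1.61, standard error 0.23, adjusted p = 0.000724). Rsad2, the antiviral enzyme viperin, had 246.2 and 281.3 against 492.1 and 590.6 (1.04, adjusted p = 0.000141), and the GTPase gene Irgm1 rose by 0.52 on the log2 scale (0.0178). In all 4 genes both EDA-A2 libraries lay above both controls, which held for 22.8% of all genes tested. These genes were named for a call on the same libraries, so this order adds nothing to the call.

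Other genes of that list were not called. Xaf1, an interferon-induced gene linked to cell death, had 454.4 and 430.6 normalized counts in control and 341.1 and 348.9 after EDA-A2, a log2 fold change of -0.36 (adjusted p 0.0817), and it was called lower with the replicate number as a block. Isg15, the ubiquitin-like protein, had 301 and 142 counts in control and 187 and 216 after EDA-A2, and Ifi44 had 195 and 52 against 95 and 116, so that both treated libraries lay between the controls. These 3 genes were singled out after their values were seen. Control replicate 1 was above control replicate 2 in 12 of the 13 genes tested, with a median ratio of 1.21, and the median log2 fold change of the list was 0.46 without control replicate 1 and -0.10 without control replicate 2. Rigi and Ifih1 shared that order of the controls, at ratios of 1.30 and 1.19. Both EDA-A2 libraries of each gene lay above both controls. A positive change against either control alone follows from that order and adds nothing to the call. The part of the difference between the controls in the values of the sensors was not tested.

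Of 13 genes of the OAS, RNase L and IFIT families, which act on RNA after sensing, 9 were tested, 7 had a positive change and 1 was called higher. Over all genes tested these shares were 49.5% and 2.45%. Ifit1, which binds RNA lacking a host cap, had 276.1 and 293.4 normalized counts in control and 401.9 and 426.5 after EDA-A2 (log2 fold change 0.54, adjusted p = 0.0121). The median of the list was 0.21, at 0.49 without control replicate 1 and 0.07 without control replicate 2.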

How the data were processed

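Polyadenylated RNA of 4 libraries, 2 control and 2 EDA-A2, was sequenced from stranded libraries in pairs. According to the study's methods and the submitters' processing notes, the authors checked reads with FastQC 0.11.9 and MultiQC 1.12, trimmed them with Trim Galore 0.6.5, mapped them to GRCm39 with STAR 2.7.3a and counted them with HTSeq 0.11.1. Each deposited table gives the raw counts of 1 library by Ensembl gene. The annotation release and strand option are not given in the sources used here, so genes overlapping on opposite strands are uncertain. Summary lines stayed out of library sizes: 6.68% to 7.40% of pairs fell outside genes, 0.946% to 0.986% were ambiguous and 4.56% to 4.76% did not map uniquely.

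Tests on these counts used edgeR 4.0.16 under R 4.3.3, with TMM factors (0.972 to 1.026), filterByExpr (minimum count 10, minimum total 15), glmQLFit and glmQLFTest with group as the only term, and adjustment after Benjamini and Hochberg over all genes tested at 0.05. These tests are two-sided. The standard error is the log2 fold change divided by the root of F. DESeq2 1.42.0 (Wald test) was an alternative, as were other scalings and filters, a replicate block and leaving out each library. In the latter, a lone library is assumed to vary like the other group. Same-numbered libraries did not deviate together (r = 0.06 over genes), so the main test has no block. The steps were tested on simulated counts. Symbols, coordinates and exon lengths came from the GENCODE annotation of GRCm39, which matched all 201 genes listed. The members and lists were chosen with earlier results of these data known. In each list the called genes are named, or else the gene with the smallest p.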

Additional observations from a re-analysis of the deposited data

How the results depend on the processing

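Rigi and Ifih1 stayed called under DESeq2 size factors, upper quartile factors, total counts, the DESeq2 Wald test, a minimum of 10 counts per library, a threshold of 0.01 and the replicate block (adjusted p 6.67e-05 for Rigi and 0.00149 for Ifih1), and the block added no other of the 9 genes but 1 partner, Xaf1. With no filter beyond 1 count in total, 0 of the 10 genes were called by edgeR (2 at an unadjusted p under 0.05, adjusted p 0.181 for Rigi and 0.113 for Ifih1), with 3 partner genes (Traf2, Traf3 and Ccl5) and 86 of all genes. With each library left out, the called genes numbered 0 to 2 of the 9, 0 to 8 of the partners and 7 to 416 of all genes, against 2, 14 and 694. For the 9 genes the count was 0 without either control library (4 at an unadjusted p under 0.05 each time) and 2 without either EDA-A2 library. The partners called were 7 at a threshold of 0.01, where all genes called were 339, and all genes called were 1066 with the replicate block. Of the 9 genes, Ikbke alone changed sign under these alternatives, to 0.0022 with upper quartile factors, 0.052 with total counts, and within a range of -0.18 to 0.15 when leaving out 1 library. The cause was not tested. Zbp1, Dhx58, Cgas and Ikbke had the lowest counts of the 10 genes, which limits what could be detected in them.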
